A study of Gallus gallus with 12 samples.

Results

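The Control EP dataset compared the right otocysts of chicken embryos, transfected with mCherry, with the left, untransfected otocysts of the same embryos. It held 6 of the 12 otocysts of the series, taken by their labels, with 3 right otocysts (60R, 61R and 62R) and 3 left otocysts (60L, 61L and 62L) from embryos 60, 61 and 62. All embryos were White Leghorn and were collected on embryonic day 3. The right otic cup was electroporated with T2-mCherry, a Tol2 plasmid coding for a membrane-localized red fluorescent protein, and both otocysts were dissected after 24 h. The other 6 otocysts formed the Wnt LOF EP 24 h dataset (embryos 50, 51 and 52), in which the right plasmid coded for mCherry together with a truncated, dominant-negative β-catenin (DNBCAT). They are used here only to show where Control EP differed. Transfection by electroporation is mosaic, the embryos were picked for strong mCherry fluorescence, and the otocysts were cleaned of mesenchyme. The side of the embryo, the electric pulses, the plasmid and mCherry came together in each right otocyst, so their contributions cannot be told apart. The mCherry sequence was not analysed here, so that the transfected side was taken from the labels alone.

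The otocyst is the closed epithelial vesicle that forms the inner ear. Its cells are patterned by Wnt signals from the dorsal side and by Notch signalling between neighbouring cells, and neuroblasts leave its epithelium to form the cochleo-vestibular ganglion. Canonical Wnt ligands bind Frizzled receptors and stabilise β-catenin, which activates targets such as AXIN2 and LGR5 together with TCF/LEF factors. Electric pulses open transient pores in cell membranes, and the procedure can injure cells, while strong expression of a foreign membrane protein loads the secretory pathway. Genes of acute stress, protein folding, DNA damage and innate immunity were therefore described here beside those of the otocyst itself.

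Between 13248447 and 15243921 estimated counts were assigned in the left otocysts and between 14495175 and 16097100 in the right otocysts. The deposited tables list transcripts by identifier, and 855 of 28756 could be given a gene symbol, of which 843 were tested. These names come from lists of genes that differed in other experiments of the study and are not a sample of all transcripts. Levels are given below in CPM, the counts of a transcript scaled to a common library total, and a log2 ratio above 0 means a higher level in the right, transfected otocyst. The markers of the otocyst were present in every library. The summed level of SOX10, LMX1A, SOHO-1, TBX2, DLX5 and BMP4 was between 838 and 889 TPM, the authors' unit corrected for transcript length, on the left and between 687 and 883 on the right.

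The right and left otocysts of an embryo were more alike than otocysts of different embryos. Over 10164 transcripts with a mean of at least 10 CPM, the median absolute log2 difference was between 0.10 and 0.13 within the 3 embryos. Between embryos it was from 0.181 to 0.345 for otocysts of the same side and from 0.172 to 0.355 for otocysts of opposite sides. The 3 distances within embryos lay below all 12 distances between embryos.

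**Figure D1:**
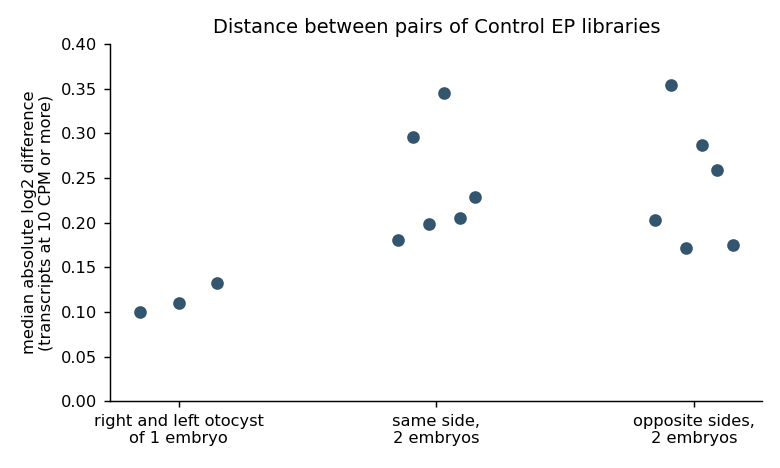
Median absolute log2 difference (y axis, transcripts with a mean of 10 CPM or more) for the 15 pairs of Control EP libraries, grouped by embryo and side. Each point is a pair of libraries, and the 3 pairs from the same embryo, between 0.10 and 0.13, lie below all others.

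No transcript passed the test between right and left otocysts. Of 19754 transcripts tested, 0 (0%) had an adjusted p under 0.05 in the quasi-likelihood test of edgeR with the embryo as a block. The smallest adjusted p was 0.960. The same test also called 0 of the 18751 transcripts that were tested in Wnt LOF EP 24 h too, so the number of calls in this test did not tell the datasets apart. With another test, the paper reported no significant gene for the mCherry otocysts, but both upregulated and downregulated genes for the DNBCAT otocysts. For its other control electroporation, with mRFP1, it did report significant genes, among them NOTCH1 and JAG2, which were decreased. Those mRFP1 otocysts are not part of this series. In Control EP, 740 transcripts (3.75%) had an unadjusted p under 0.05 in edgeR, 394 higher (1.99%) and 346 lower (1.75%) on the right. All right libraries lay above all left libraries for 486 transcripts (2.46%) and below them for 528 (2.67%). These counts include transcripts that passed the count filter only through the libraries of one side, whose sides could not overlap. A higher level on the right in all 3 embryos was seen for 2667 transcripts (13.5%) and a lower level for 2583 (13.1%). Without the block, 233 transcripts had an unadjusted p under 0.05. The Wald test of DESeq2 called 84 transcripts (0.425%), 44 higher and 40 lower, for which the unadjusted p of edgeR was between 0.000692 and 0.111. Of those 84, 30 were at or below 3 counts in every library of one side, and 32 differed by less than 2-fold. Only 6 had a gene symbol, namely HOXA3, EMP1, HNRNPA2B1, APCDD1, CCDC88C and CXCL14.

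How closely the intervals limited a difference depended on the level of the transcript. The 95% interval of the log2 fold change lay within 1 unit of no change for 11754 transcripts (59.5%). The share was 99.6% of 2356 transcripts at or above 100 CPM and 93.4% of 7808 between 10 and 100 CPM. It was 30.5% of 6952 between 1 and 10 CPM and 0.0379% of 2638 below 1 CPM, so that intervals of low transcripts seldom excluded a 2-fold difference. These are unadjusted intervals of single transcripts and do not give the difference that the adjusted test could call. That test called no transcript at any level, including ENSGALT00000051168.2 with 0, 0 and 1 counts on the left and 52, 54 and 95 on the right. The median absolute log2 fold change was 0.14 over all transcripts and 0.07 over those at or above 10 CPM.

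The log2 ratios of different embryos had little in common across transcripts. Between 10 and 100 CPM, the ratios of embryos 60 and 61 correlated with r = -0.011, those of 60 and 62 with r = -0.007, and those of 61 and 62 with r = -0.103. At or above 100 CPM the values were -0.157, -0.011 and 0.307. These are correlations across transcripts of the same library pairs, and transcripts are not independent replicates. In the 2356 abundant transcripts the ratios of embryos 61 and 62 also correlated with those of embryo 51 of Wnt LOF EP 24 h, with r = 0.506 and 0.576, and with those of embryo 50, with r = 0.265 and 0.249, whereas for embryo 60 the values were -0.052 and -0.049. With embryo 52 they were 0.024 and 0.171 for embryos 61 and 62 and -0.179 for embryo 60. Library 51R stood apart from the others, since its 10 most abundant transcripts took 12.4% of its counts, against 4.48% to 5.84% in the other 11 libraries.

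The right to left ratio moved with the length of the transcript. Among transcripts at or above 10 CPM, 72.8% of the 749 shorter than 1000 bases were higher on the right, 61.0% of the 3002 from 1000 to 2000 bases, 47.6% of the 4831 from 2000 to 4000 bases, and 36.7% of the 1582 of 4000 bases or more. The median log2 ratio of the shortest class was 0.08 in embryo 61 and 0.12 in embryo 62, but -0.00 in embryo 60. In the longest class the medians were -0.07 and -0.02 in embryos 61 and 62, and -0.04 in embryo 60. In Wnt LOF EP 24 h the medians of the shortest class were 0.17, 0.55 and -0.04 in embryos 50, 51 and 52. Those of the longest class were -0.17, -0.16 and 0.06, so the trend was also present in embryos 50 and 51. The part of length in the gene results was not tested as a cause. With a smooth length trend taken out of every library, a setting chosen after seeing the data, the edgeR test called 0 transcripts and 646 had an unadjusted p under 0.05.

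**Figure D2:**
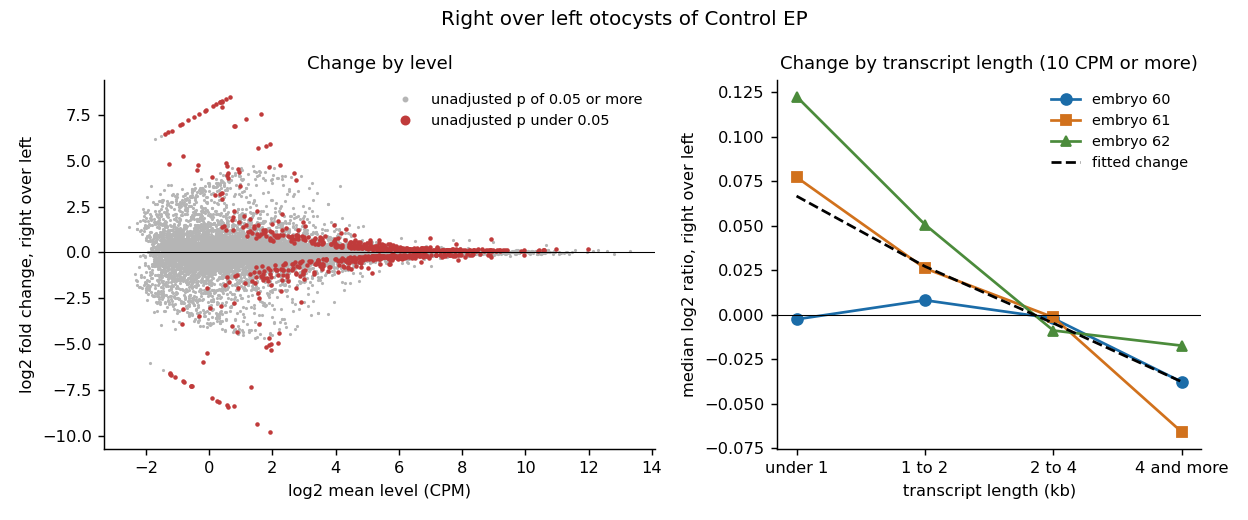
Left panel, log2 fold change (right over left, y axis) against log2 mean CPM (x axis) for the 19754 transcripts tested, with the 740 at an unadjusted p under 0.05 in red. Right panel, median log2 ratio (y axis) by transcript length in kb (x axis) for each embryo and for the fitted change, at 10 CPM or more, which goes from above 0 to below 0 with length except in embryo 60, where the short classes are near 0.

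The largest fold changes belonged to transcripts that were nearly absent on one side. HOXA3 (ENSGALT00000049246.2), a homeobox gene of the hindbrain and pharyngeal arches, had 3, 1 and 0 counts in the left otocysts of embryos 60, 61 and 62 and 197, 6 and 105 counts in the right otocysts. The unnamed transcript ENSGALT00000051168.2 had 0, 0 and 1 counts on the left and 52, 54 and 95 on the right, and ENSGALT00000067721.2 had 0, 0 and 1 against 35, 41 and 77. In the opposite direction, ENSGALT00000059013.2 had 112, 16 and 186 counts on the left and 3, 0 and 8 on the right. For HOXA3 and these 3 transcripts the groups did not overlap, although the right value of HOXA3 in embryo 61 was only 6 counts. HOXA3, ENSGALT00000051168.2 and ENSGALT00000067721.2 reached the 5 counts of the filter only in the right libraries. A transcript that passes in this way has all right libraries above all left ones, so their lack of overlap was fixed by the filter. ENSGALT00000103463.1 differed at a higher level, with 451, 615 and 421 counts on the left and 287, 417 and 221 on the right, and its log2 fold change was -0.79 ± 0.10 (SE, n = 3 pairs, edgeR). Estimated counts of transcripts of the same gene depend on how reads are shared among them, so these values may not be those of whole genes. In Wnt LOF EP 24 h the log2 ratios of HOXA3 were -2.49, 1.39 and 4.26, with no common direction.

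Among named transcripts with the same direction in all 3 embryos, the 10 lower on the right with the smallest p had log2 fold changes between -0.79 and -0.16. The groups did not overlap for 1 of them, GJB6, and over all transcripts tested every right library lay below every left one for 2.67%. The 10 were chosen by their p in these otocysts, so that their values are a description. The smallest p belonged to EMP1 (ENSGALT00000030620.5), a membrane protein of epithelial cells. Its level was 20.7, 44.9 and 29.7 CPM in the left otocysts of embryos 60, 61 and 62 and 14.1, 30.8 and 20.5 CPM in the right otocysts. The groups overlapped, while the log2 ratios within embryos were nearly the same (-0.55, -0.54 and -0.53). The log2 fold change was -0.54 ± 0.07 (SE, n = 3 pairs), with an unadjusted p of 0.00159 and an adjusted p of 0.960 in edgeR. CXCL14 (ENSGALT00000010256.5), a chemokine, was at 24.9, 30.6 and 22.2 CPM on the left and at 12.8, 23.0 and 11.03 CPM on the right. It was lower on the right in each embryo, and only the right otocyst of embryo 61 fell within the range of the left otocysts. The log2 fold change of CXCL14 was -0.79 ± 0.16 (edgeR, adjusted p = 0.960).

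Genes tied to Wnt signalling were among the 10. LGR5 (ENSGALT00000016526.6), a receptor for R-spondins and a Wnt target, was at 56.7, 49.0 and 41.1 CPM on the left and at 49.0, 40.4 and 35.0 CPM on the right. APCDD1 (ENSGALT00000102628.1), a membrane inhibitor of the pathway and a Wnt target, was at 363, 304 and 223 CPM on the left and at 336, 246 and 180 CPM on the right. Both genes were lower on the right in each embryo and overlapped between the groups, since embryos differed more than sides. Their log2 fold changes were -0.24 ± 0.05 and -0.24 ± 0.06 (edgeR, adjusted p = 0.960 for each). GJB6 (ENSGALT00000103505.1), a connexin of gap junctions, was at 69.6, 88.0 and 74.8 CPM on the left and at 61.5, 61.9 and 55.0 CPM on the right, with a log2 fold change of -0.38 ± 0.08. The source of this name lists GJB2 as another human homolog of the transcript.

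The group held 5 further genes. ZNF804A, a zinc finger gene, had a log2 fold change of -0.31 ± 0.06. SLC12A2, the sodium, potassium and chloride cotransporter that secretory epithelia of the inner ear use, was at 295, 213 and 156 CPM on the left and at 273, 181 and 129 CPM on the right, a log2 fold change of -0.21 ± 0.05. PTPRF (ENSGALT00000091047.1), a receptor tyrosine phosphatase with another named transcript not described here, had a value of -0.16 ± 0.03. For TICRR, a factor of replication initiation, and PTBP1, a splicing repressor, the values were -0.19 ± 0.04 and -0.16 ± 0.04. The transcripts of these 5 genes were between 3735 and 7513 bases long, in the classes in which lower values on the right were more frequent. CXCL14 of the lower group, with 1630 bases, was in a class in which 61.0% of transcripts were higher on the right.

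The 10 named transcripts higher on the right with the smallest p had log2 fold changes between 0.12 and 5.81, the highest being HOXA3. The groups did not overlap for FGFR4 and for HOXA3, where the filter had fixed this. Over all transcripts tested, every right library lay above every left one for 2.46%. FGFR4 (ENSGALT00000025332.6), a receptor for fibroblast growth factors, was at 12.4, 11.1 and 13.0 CPM on the left and at 15.2, 21.2 and 20.5 CPM on the right. The right otocyst of embryo 60 was the closest to the left group. The log2 fold change of FGFR4 was 0.63 ± 0.17 (edgeR, adjusted p = 0.960). CCDC88C (ENSGALT00000094160.1), a protein that binds Dishevelled in Wnt signalling, was at 105, 103 and 130 CPM on the left and at 115, 136 and 170 CPM on the right. It was higher on the right in each embryo, by 0.31 ± 0.07 on the log2 scale. HNRNPA2B1 (ENSGALT00000017975.6), an RNA-binding protein of splicing, was at 540, 570 and 702 CPM on the left and at 579, 627 and 777 CPM on the right, a log2 fold change of 0.13 ± 0.03. Another transcript with the name HNRNPA2B1 is not described here.

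Of the remaining genes, LIPG, the endothelial lipase, had a log2 fold change of 0.35 ± 0.10, SLC1A3, a glutamate transporter, of 0.33 ± 0.09, and RAB5C, a GTPase of early endosomes, of 0.18 ± 0.05. GRSF1, an RNA-binding protein of mitochondria, and MT-ND3, a subunit of respiratory complex I that the mitochondrial genome encodes, had values of 0.12 ± 0.03 and 0.16 ± 0.05. RPL34, a protein of the large ribosomal subunit, had a value of 0.13 ± 0.04. MT-ND3 and RPL34 are 351 and 430 bases long, in the class in which 72.8% of transcripts were higher on the right. LIPG, RAB5C, HNRNPA2B1 and GRSF1, with 1429 to 1903 bases, were in the class with 61.0% higher. FGFR4, with 3695 bases, was in the class with 47.6% higher, and CCDC88C and SLC1A3, with 6476 and 4295 bases, in that with 36.7% higher.

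**Figure D3:**
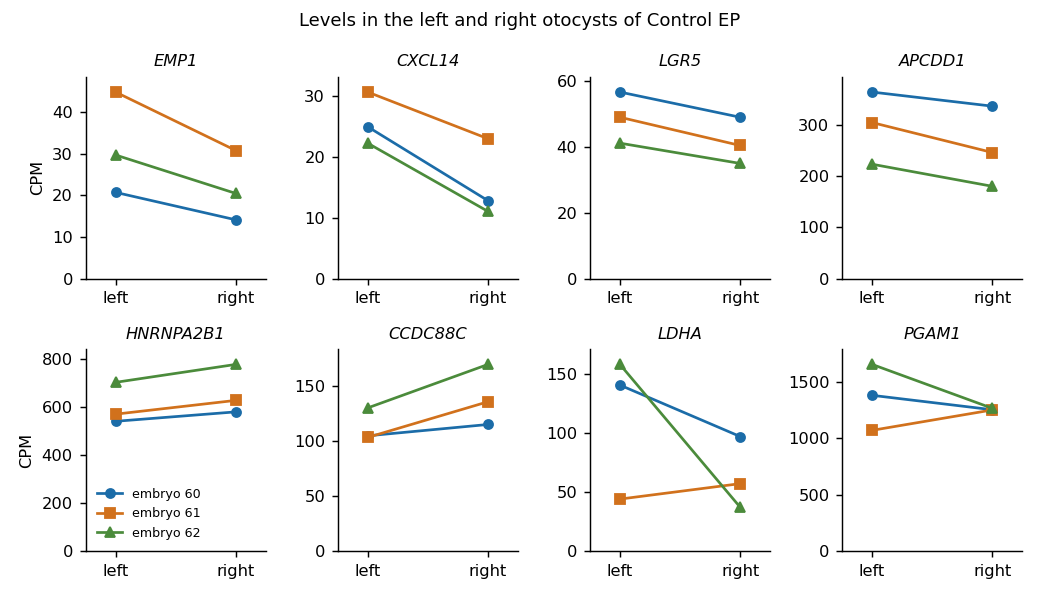
Level in CPM (y axis, from 0) in the left and right otocyst of each Control EP embryo for 8 genes, with a line joining the otocysts of an embryo. EMP1, CXCL14, LGR5 and APCDD1 are lower and HNRNPA2B1 and CCDC88C higher on the right in all 3 embryos, whereas LDHA and PGAM1 are higher on the right only in embryo 61.

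The same contrast was read in the Wnt LOF EP 24 h otocysts, which share no library with Control EP and in which the right side was also electroporated and carried mCherry. All 10 genes of the lower group had a log2 fold change below 0 there, 8 were lower in all 3 embryos, and 7 had an unadjusted p under 0.05 in edgeR, as had 2.77% of all transcripts in that direction. Of the higher group, 9 of 10 had a fold change above 0, 2 were higher in all 3 embryos, and 2 had an unadjusted p under 0.05, against 3.50% of all transcripts. The 20 genes were drawn from the named transcripts, of which 505 were lower and 332 higher there. Of these, 139 lower and 56 higher ones had an unadjusted p under 0.05 in edgeR, larger shares than over all transcripts. In addition, 3 of the lower group (ZNF804A, CXCL14 and SLC12A2) and GRSF1 of the higher group were taken from the study's list for Wnt LOF EP 24 h. Their direction there is therefore not independent evidence. The length trend was also present in embryos 50 and 51, and its part in the shared directions was not tested. For EMP1 the log2 fold change was -0.58 ± 0.15 with DNBCAT and -0.54 ± 0.07 with mCherry alone. The values of GJB6 were -0.36 ± 0.12 and -0.38 ± 0.08. With DNBCAT the values were lower for CXCL14 (-1.84 ± 0.34), LGR5 (-0.71 ± 0.22), APCDD1 (-0.78 ± 0.23), ZNF804A (-0.65 ± 0.11) and SLC12A2 (-0.57 ± 0.10). The unadjusted p of the difference was smallest for ZNF804A and SLC12A2 in this group, with 0.0159 and 0.0161 in edgeR. In embryos 50 and 52, without embryo 51 and its library 51R, the log2 ratios of CXCL14 were -2.40 and -0.90, those of EMP1 -0.57 and -0.29, those of LGR5 -0.37 and -0.49 and those of APCDD1 -0.9993 and -0.17. The difference between the datasets did not pass the test for any of the 20 genes (edgeR, smallest adjusted p = 0.935), nor for any of the 19298 transcripts tested. For those, 842 (4.36%) had an unadjusted p under 0.05 in edgeR, and DESeq2 called 64 (0.332%).

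**Figure D4:**
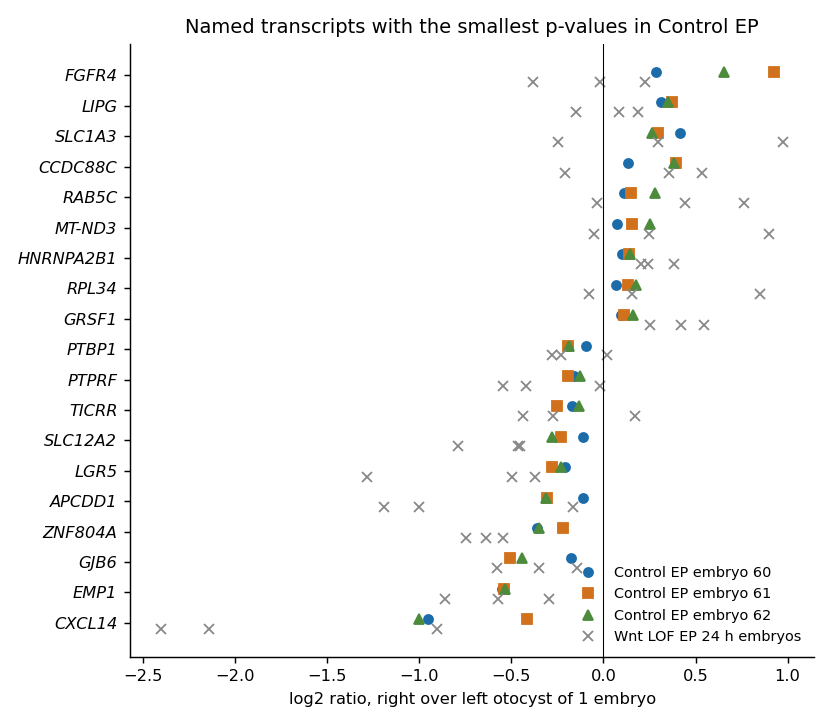
Log2 ratio of right over left otocyst (x axis) in each Control EP embryo (coloured symbols) and each Wnt LOF EP 24 h embryo (crosses) for 19 of the 20 named transcripts with the smallest p in Control EP, HOXA3 being left out for scale. The coloured symbols of a gene lie on one side of 0 because the genes were chosen so, and the crosses of CXCL14, LGR5 and APCDD1 reach lower values.

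Stress genes did not move together. Of 16 transcripts of immediate early and acute stress genes, 5 were higher and 11 lower on the right, with 0 at an unadjusted p under 0.05 and a median log2 fold change of -0.05, beside 0.00 over all transcripts tested, of which 50.0% were higher and 50.0% lower. The lists were drawn from the named transcripts, which leaned lower, with 362 higher (42.9%) and 481 lower, a median of -0.02, and 25 higher and 44 lower at an unadjusted p under 0.05 in edgeR. DDIT4, an inhibitor of mTOR signalling that is induced by stress, had the smallest p of the list in edgeR, with a log2 fold change of -0.29 ± 0.12. BTG1, an antiproliferative gene, had a value of -0.01 ± 0.07, and CDKN1A, the cell cycle inhibitor that p53 induces, had 0.71 ± 0.59 at levels between 0.284 and 1.05 CPM. Endoplasmic reticulum chaperones were even closer to 0. Of 18 transcripts, 8 were higher and 10 lower, and the median was -0.01. On the TPM scale, on which the median of all transcripts also shifted down, it was -0.05. All 18 intervals lay within 1 log2 unit of no change, as did 93.4% of all transcripts between 10 and 100 CPM and 99.6% of those at or above 100 CPM. HSP90B1 was at 1540, 1465 and 1532 CPM on the left and at 1475, 1447 and 1529 CPM on the right, and the log2 fold change of HSPA5, the chaperone BiP, was 0.04 ± 0.03.

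The 6 chaperone genes of the heat shock list were all above 0, with a median of 0.10 and embryo medians of 0.07, 0.10 and 0.15. On the TPM scale, on which the median of all transcripts also shifted down, the median of the list was 0.06. HSPD1, the mitochondrial chaperonin, and ZFAND2A, a gene induced by arsenite and heat, had an unadjusted p under 0.05 in edgeR. In that direction this held for 1.99% of all transcripts and 25 of 843 named transcripts, and no member passed the adjustment. ZFAND2A was at 24.0, 20.5 and 33.4 CPM on the left and at 29.1, 22.5 and 41.3 CPM on the right, a log2 fold change of 0.24 ± 0.08. The groups overlapped, and each right otocyst was above its left counterpart. HSPA8, the constitutive cytosolic chaperone, had a log2 fold change of 0.03 ± 0.04, which was -0.01 on the TPM scale. In Wnt LOF EP 24 h the median of the list was 0.35, and 2 of its members were in the study's list for that dataset. Genes of the DNA damage response (4 higher and 7 lower, median -0.04) and of innate immunity (4 higher and 7 lower, median -0.03) had 1 and 0 members at an unadjusted p under 0.05. The 1 member, TICRR, was lower on the right, as were 1.75% of all transcripts and 44 of 843 named transcripts at that threshold in edgeR. In the innate immune list NFKBIA, the inhibitor of NF-kappaB, had log2 ratios of 0.40, -0.27 and 0.00, and TNFSF10, the death ligand TRAIL, had a log2 fold change of -0.12 ± 0.05. RBBP8, a factor of DNA end resection, was at 0.05 ± 0.03.

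Genes of the hypoxia response and glycolysis varied most between embryos. All 10 had a fitted change below 0, with a median of -0.10 and 0 at an unadjusted p under 0.05, but 7 were higher on the right in embryo 61, against 0 in embryo 60 and 1 in embryo 62. LDHA (ENSGALT00000039415.4), the lactate dehydrogenase of glycolysis, was at 141, 44.0 and 158 CPM on the left and at 97.0, 57.1 and 37.0 CPM on the right. The right otocyst was lower in embryos 60 and 62 and higher in embryo 61. The log2 fold change of LDHA was -0.76 ± 0.51 (edgeR, adjusted p = 0.960), -0.11 without embryo 62 and -1.29 without embryo 61. SLC16A3, a lactate exporter, had log2 ratios of -0.54, 0.30 and -1.13. P4HA1, a collagen prolyl hydroxylase induced by hypoxia, had the smallest p of the list, with a log2 fold change of -0.21 ± 0.08. PGAM1, a glycolytic mutase, was at 1254, 1252 and 1267 CPM in the right otocysts and at 1382, 1071 and 1657 CPM in the left otocysts. The left, untransfected otocysts were thus the ones that varied in PGAM1, and those of embryos 60 and 62 were above that of embryo 61 for LDHA, SLC16A3 and PGAM1. In Wnt LOF EP 24 h the log2 ratios of LDHA were -1.40, -1.51 and -1.49, while the test of the difference gave an adjusted p of 0.935 (edgeR). LDHA, SLC16A3 and P4HA1 were in the study's list for that dataset, so these ratios of LDHA are not independent evidence.

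The Wnt pathway list held 32 tested members, of which 8 were higher and 24 lower on the right, with a median of -0.07 and embryo medians of -0.01, -0.11 and -0.12. Over all named transcripts 481 of 843 were lower, with a median of -0.02. Among ligands, WNT2B was at 49.1, 52.9 and 53.8 CPM on the left and at 40.9, 50.3 and 41.9 CPM on the right. WNT11, a ligand of β-catenin-independent signalling, was at 4.97, 5.49 and 5.13 CPM on the left and at 3.41, 2.89 and 3.41 CPM on the right. It was the 1 member of 32 with every right library below every left one, against 2.67% of all transcripts and 17 of 843 named transcripts. The log2 fold changes of WNT2B and WNT11 were -0.23 ± 0.08 and -0.68 ± 0.24. Together with the receptors LGR5 and LGR4 (-0.11 ± 0.04) they had an unadjusted p under 0.05 in edgeR. These were 4 of 32 members, against 1.75% of all transcripts and 44 of 843 named transcripts in that direction. WNT3A, a dorsal ligand, had log2 ratios of 0.55, -0.12 and -0.06. For AXIN2, a negative feedback target of the pathway, the log2 fold change was -0.19 ± 0.09. CTNNB1, which codes for β-catenin, was at 1395, 1573 and 1511 CPM on the left and at 1403, 1498 and 1491 CPM on the right, a log2 fold change of -0.03 ± 0.03. The sides of CTNNB1 overlapped and differed by less than the embryos did. In Wnt LOF EP 24 h the median of the list was -0.23, with 3 higher and 29 lower, and WNT2B had a log2 fold change of -1.23 ± 0.11. The difference of WNT2B between the datasets was 0.997 on the log2 scale, with an unadjusted p of 0.000155 and an adjusted p of 0.670 in edgeR. WNT2B was among the 3 members of the Wnt pathway list that the study also lists as changed in Wnt LOF EP 24 h. Its values there and this difference are therefore not independent evidence.

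The Notch pathway list had 4 members higher and 7 lower, with a median of -0.04 and 0 at an unadjusted p under 0.05. The receptor NOTCH1 was at 403, 228 and 162 CPM on the left and at 446, 206 and 159 CPM on the right. It was higher on the right only in embryo 60, and its log2 fold change was -0.01 ± 0.07, of which the sign changed with the scaling. The ligands JAG2 and DLL1 had log2 fold changes of -0.12 ± 0.10 and -0.15 ± 0.14. Among targets, HES5 and HES4 had values of -0.10 ± 0.13 and 0.12 ± 0.06, and HEY1 of 0.03 ± 0.05. The value of HEY1 was -0.02 on the TPM scale, on which the median of all transcripts also shifted down. All 11 intervals of the Notch list lay within 1 log2 unit of no change, as did 93.4% of all transcripts between 10 and 100 CPM and 99.6% of those at or above 100 CPM.

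Patterning genes of the otocyst differed by amounts that varied between embryos. Of 21 transcripts tested, 3 were higher and 18 lower, beside 50.0% lower among all transcripts and 481 of 843 among the named ones. The median was -0.10, and the embryo medians were -0.02, -0.09 and -0.28. Only GJB6 had an unadjusted p under 0.05 in edgeR, against 1.75% of all transcripts and 44 of 843 named transcripts in that direction. SOX10, a transcription factor of otic epithelium, was at 696, 690 and 633 CPM on the left and at 714, 671 and 559 CPM on the right. Only embryo 62 showed a log2 ratio beyond 0.1 for SOX10 (-0.18). LMX1A, a dorsal and non-sensory factor, had a log2 fold change of -0.05 ± 0.04, and BMP4, a signal of the future cristae, had log2 ratios of 0.18, 0.21 and -0.60. In neuroblasts and young neurons 4 transcripts were higher and 13 lower, with a median of -0.07. EBF3, a transcription factor of differentiating neurons, was at 14.7, 15.1 and 7.57 CPM on the left and at 10.3, 11.1 and 4.13 CPM on the right for 1 transcript (log2 fold change -0.60 ± 0.17), whereas a second transcript of EBF3 had a value of -0.07 ± 0.05. NEUROD1, the proneural factor of otic neurons, had log2 ratios of -0.33, 0.04 and -0.46. In a bulk sample, fewer cells of a type and less RNA per cell cannot be told apart.

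Epithelial keratins, junction genes and annexins had the lowest median of the lists, -0.26, with 1 transcript higher and 11 lower and embryo medians of -0.31, -0.07 and -0.27. Their range was from -0.64 to 1.12, and the interval lay within 1 log2 unit of no change for only 7 of 12. UPK1B, a uroplakin, was at 100, 80.5 and 92.4 CPM on the left and at 91.8, 71.6 and 83.9 CPM on the right for its abundant transcript, a log2 fold change of -0.15 ± 0.04. KRT7, a keratin of simple epithelia, and LGALS3, a galectin, had values of -0.31 ± 0.12 and -0.26 ± 0.11, and CDH1, the epithelial cadherin, of -0.06 ± 0.07. Genes of the basement membrane and other matrix had 6 members higher and 14 lower, with a median of -0.11. Among them COL18A1, LAMA4 and COL2A1, chains of collagens and laminin, had log2 fold changes of -0.17 ± 0.05, -0.26 ± 0.07 and -0.24 ± 0.08. Each had an unadjusted p under 0.05 in edgeR, 3 of 20 members, against 1.75% of all transcripts and 44 of 843 named transcripts in that direction. SPARC, a collagen-binding matrix protein, had log2 ratios of 0.11, -0.14 and -0.16.

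Markers of tissue around the otocyst were measured in every library. The mesenchymal markers summed to between 353 and 445 TPM on the left and between 395 and 428 TPM on the right, and those of muscle and vessel to between 63.0 and 80.3 TPM and between 60.9 and 79.1 TPM. The ranges overlapped for both, and no marker was at 0 in all libraries. The marker sum of otic neuroblasts was between 185 and 209 TPM on the left and between 135 and 209 TPM on the right, the lowest value being that of 62R, which also had the lowest epithelial sum. The part of these differences in the gene results was not tested. In the mesenchymal list 10 transcripts were higher and 6 lower, with embryo medians of -0.04, -0.15 and 0.22. The median of the list, 0.01, ranged from -0.11 to 0.14 when 1 embryo was left out. It was -0.03 on the TPM scale, on which the median of all transcripts also shifted down. THY1, a surface protein of mesenchymal and neural cells, had log2 ratios of -0.08, 0.51 and 0.00, and ENG, a co-receptor for TGF-β, had a log2 fold change of 0.00 ± 0.14. NT5E, an ectonucleotidase, was low in all otocysts (between 1.38 and 2.89 CPM) and had log2 ratios of 0.31, -1.0019 and 0.28. FNDC1, a fibronectin domain protein, had a value of -0.18 ± 0.07. Of 9 muscle and vessel transcripts, 4 were higher and 5 lower, with a median of -0.00, and ANGPT1, the ligand of the endothelial receptor TIE2, had the lowest value, -0.89 ± 0.33, at levels between 2.04 and 8.38 CPM.

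Cell cycle and ribosomal protein genes showed small shifts that rested on embryos 61 and 62. Of 28 cell cycle genes, 22 were higher and 6 lower, but only 5 were higher in embryo 60, against 22 in embryo 61 and 23 in embryo 62. The median was 0.03, and -0.01 on the TPM scale, on which the median of all transcripts also shifted down. PCNA, the sliding clamp of DNA replication, had log2 ratios of -0.07, 0.06 and 0.18. All 14 ribosomal protein genes had a fitted change above 0, with a median of 0.07 and embryo medians of -0.03, 0.12 and 0.14. RPL34 and RPS24 had an unadjusted p under 0.05 in edgeR. Beside these 2 of 14, 44 of 749 transcripts shorter than 1000 bases at or above 10 CPM were higher at that threshold, and 1.99% of all transcripts. The median length of the 14 was 603 bases, and with the length trend removed their median was 0.04. Sterol and lipid synthesis genes had 6 members higher and 4 lower, with a median of 0.02. Their embryo medians were 0.09, -0.00 and -0.12, with 9, 5 and 1 of 10 higher, and FDPS, the farnesyl diphosphate synthase, had a log2 fold change of 0.04 ± 0.05.

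**Figure D5:**
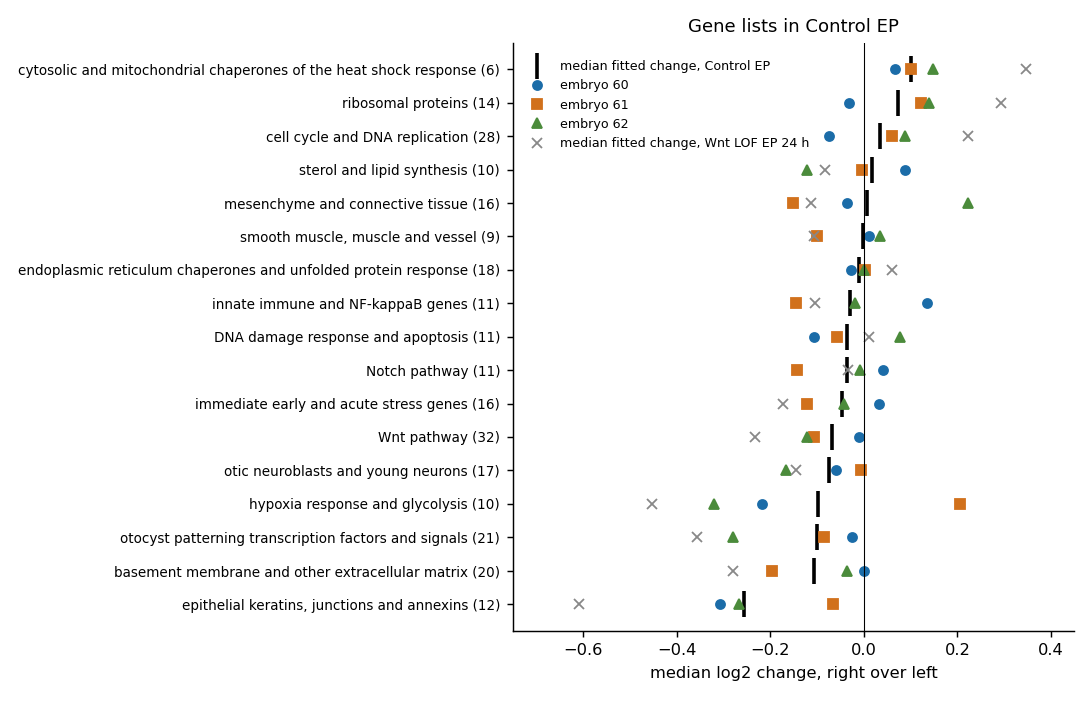
Median log2 change, right over left (x axis), of the tested transcripts of 17 gene lists (number in brackets), as fitted in Control EP (bars), in each Control EP embryo (coloured symbols) and as fitted in Wnt LOF EP 24 h (crosses). The fitted medians of Control EP lie between -0.26 and 0.10, and the embryos lie on different sides of 0 for most lists.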

How the data were processed

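Each otocyst gave a separate library. The authors quantified the reads with Kallisto against the chicken transcriptome and deposited estimated counts, which are not normalized, and TPM values, which sum to the same total in each library. Rounded counts were compared with edgeR 4.0.16 in R 4.3.3 (quasi-likelihood test, TMM scaling, embryo as block, Benjamini-Hochberg adjustment). A transcript was kept if its estimated count reached 5 in 47% of the libraries in the comparison or more. Standard errors and 95% intervals come from the same fit, and log2 ratios of single embryos from CPM with a prior count of 2. Otocysts with the same number belong to the same embryo. Across transcripts, the deviations of right and left otocysts correlated with r = 0.316, 0.122 and 0.227 within embryos, against -0.238 to 0.0197 between different embryos. The difference between the datasets was tested over all 12 otocysts.

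Alternatives were DESeq2 1.42.0, its size factors in edgeR, limma 3.58.1 (voom, and log2 of TPM plus 1 or 0.1), other filters, no block, a joint fit of all 12 otocysts, and dropping each embryo in turn. An exact test over 3 pairs could not go below a two-sided p of 0.25. The tests were tested on simulated data. The standard errors and intervals rest on the variation between the 3 pairs as well as on counting error. They are also moderated by the variation of the other transcripts, so they are not the spread of the 3 ratios of a gene alone. Plots and summaries used Python 3.11.15 with pandas 2.3.3.

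Gene symbols came from the study's supplementary lists, 16 of them by matching listed TPM values to the deposited tables. The text names the 10 transcripts with the smallest p in each direction among those with a symbol and the same direction in all 3 embryos, from each gene list the member with the smallest p and that with the highest mean TPM, and NOTCH1, JAG2, ENG, NT5E, THY1, LDHA and SLC16A3. Other list members and the unnamed transcripts were chosen after their values were seen. The otocysts, lists and rules were chosen with earlier results of these data known.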

Additional observations from a re-analysis of the deposited data

How the results depend on the processing

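Between right and left otocysts 0 transcripts were called under every alternative run except DESeq2, which called 84, and from 0 to 0 when 1 embryo was left out. The difference between the datasets called 0 transcripts except with DESeq2 (64) and with limma on log2 TPM (1 with each pseudocount). The number with an unadjusted p under 0.05, 740, was 233 without the replicate block, 1232 with DESeq2, 1116 with limma on log2(TPM + 1), 406 with all 12 otocysts in one fit, and from 662 to 931 leaving out 1 embryo. The pairing by embryo thus changed this number and no call of edgeR. The causes were not tested. Of 559 values of the 56 named genes under settings that kept all embryos, 544 had the same direction.

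On the TPM scale the log2 fold change was -0.0127 for HSPA8, -0.0158 for RPL14, -0.0178 or -0.0179 for HEY1 and -0.0333 or -0.0405 for ENG, which was also -0.0031 with all 12 otocysts in one fit. With the length trend removed, chosen after seeing the data, it was -0.0003 for RPL14 and -0.0026 for HEY1. For NOTCH1 it was 0.0337 without the block, 0.0 with DESeq2 size factors, 0.0005 with DESeq2 and 0.0199 with voom. Leaving out 1 embryo gave ranges of -0.0411 to 0.2511 for THY1, -0.0061 to 0.1220 for PCNA, -0.0076 to 0.0773 for FDPS, -0.2690 to 0.0423 for PGAM1, -0.0121 to 0.1008 for RPL14, -0.0150 to 0.0607 for HEY1, -0.0611 to 0.0256 for IL1RAP, -0.3815 to 0.3097 for NT5E, -0.0981 to 0.0484 for BTG1, -0.0854 to 0.0571 for NOTCH1 and -0.1291 to 0.0700 for ENG. Of 221 list medians, 216 moved by less than the SD of the medians of the 3 embryos. Some of the settings left out 1 of these same embryos, so this count is a description only. The lists that moved were those of endoplasmic reticulum chaperones and of heat shock. Their medians were -0.0501 or -0.0509 and 0.0595 or 0.0598 on the TPM scale. On the TPM scale the median of all transcripts shifted by -0.04. With 3 pairs, the unadjusted intervals of transcripts below 10 CPM mostly did not exclude a 2-fold difference. The adjusted test of edgeR called no transcript at any level, so the size of change that it could detect is not known from these data.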
